A study of Mus musculus with 14 samples.

Results

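The RNAs described here are 10 long noncoding and small nucleolar RNA (snoRNA) host transcripts, several of them known for high levels in neurons: Meg3, Rian and Mirg of the imprinted Dlk1-Dio3 domain, the nuclear RNAs Miat, Malat1 and Neat1, and the snoRNA hosts Snhg11, Snhg14, Snhg17 and Gas5. They were chosen by name from a table of 55401 genes, and all 10 were found. The names themselves were chosen by a first look at levels and group differences in the same 14 libraries, so the levels and changes of these RNAs are given as descriptions and not as tests. Of the 10, 9 passed the filter on low counts, and Rian did not. A member that passed only through the group where it is high had to differ, so the 9 are not a fair sample of the 10.

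Each of the 14 libraries was made by SMART-Seq2, a full-length method for polyadenylated RNA, from a tube of 4 to 5 EGFP-labelled PiC neurons of wild-type C57BL/6 mice. All mice carried the same label, AAVretro-EGFP, a virus taken up by axon ends and carried back to the cell body, of which 0.1 µl was placed in PrL or in MeA. PiC-PrL neurons came from 4 female and 4 male tubes and PiC-MeA neurons from 3 female and 3 male tubes, and the abbreviations are those of the labels. The labels give neither the age of the mice nor the number of mice per tube, no unlabelled control was analysed here, and the spread between tubes may be technical. The series asks how expression in these neurons differs by sex. Both sexes can be compared within a projection, and both projections within a sex.

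Long noncoding RNAs carry no long reading frame and act as RNA. Malat1 collects in nuclear speckles, which store splicing factors, and Neat1 is the scaffold of paraspeckles, nuclear bodies that hold RNA and the proteins Nono and Sfpq. Host genes carry snoRNAs in their introns: after splicing, the introns are trimmed to snoRNAs that guide chemical marking of ribosomal and other RNAs, and the spliced host RNA is what an mRNA library can read. C/D snoRNAs guide 2'-O-methylation and H/ACA snoRNAs guide pseudouridylation. Meg3, Rian and Mirg are expressed from the maternal chromosome and carry snoRNAs and a large miRNA cluster, and Snhg14 is expressed in neurons from the paternal chromosome, where it runs through the Snord116 and Snord115 repeats and then antisense to Ube3a.

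The small RNAs inside these hosts show what kind of host each is. Annotation in GENCODE M21 (GRCm38) placed 13 snoRNAs in Rian, 208 in Snhg14, 10 in Gas5, 3 in Snhg17 and 2 in Snhg11. All 5 snoRNAs of Snhg17 and Snhg11 end in ACA as annotated, the letters that name the H/ACA class, and a member of each host is printed first with that ending in capitals. The C/D type follows, with the C box TGATGA and the D box CTGA in capitals: 1 of Gas5, 1 of Rian, and the most repeated sequences of Snhg14.
Gm23925, in Snhg17 (chr2:158359798-158359929, minus strand): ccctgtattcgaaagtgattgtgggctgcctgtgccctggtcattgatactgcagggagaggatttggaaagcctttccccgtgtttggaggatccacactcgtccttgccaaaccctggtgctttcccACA
Gm25187, in Snhg11 (chr2:158378222-158378354, plus strand): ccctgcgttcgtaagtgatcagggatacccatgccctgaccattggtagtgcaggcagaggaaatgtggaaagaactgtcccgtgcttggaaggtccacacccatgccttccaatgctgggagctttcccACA
Snord80, in Gas5 (chr1:161037604-161037680, plus strand): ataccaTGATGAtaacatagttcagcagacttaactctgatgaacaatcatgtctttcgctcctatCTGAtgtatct
AF357425, in Rian (chr12:109636012-109636084, plus strand): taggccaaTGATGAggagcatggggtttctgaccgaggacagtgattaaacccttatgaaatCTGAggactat
Gm24866, in Snhg14 (chr7:59393561-59393639, minus strand): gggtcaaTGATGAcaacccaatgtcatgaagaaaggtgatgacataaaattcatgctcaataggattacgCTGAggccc
Gm22285, in Snhg14 (chr7:59678509-59678602, minus strand): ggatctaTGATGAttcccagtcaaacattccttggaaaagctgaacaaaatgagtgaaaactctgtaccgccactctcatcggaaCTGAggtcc

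Gm23925 and Gm25187 lie in neighbouring hosts and were 75% identical over 136 aligned positions, so the pair shares much of its sequence. Within Snhg17, Gm24411 and Gm23925 were 93.9% identical. The sequence of Gm24866 occurs 33 times among the 208 snoRNAs of Snhg14 and that of Gm22285 occurs 30 times, the latter also under Snord116 names. The 208 entries hold 85 distinct sequences, and 189 carry both boxes in the exact letters searched. The letters are a description: in Gas5, 6 of 10 snoRNAs carry both boxes exactly.

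The miRNAs of the Dlk1-Dio3 hosts are shown because Mirg, which carries most of them, separated the projections in males. RefSeq (GRCm38.p6) lists 26 mature miRNAs inside Mirg, 6 inside Rian and 3 inside Meg3. Seeds, bases 2 to 8, which pair with target mRNAs, are in capitals.
miR-134-5p, in Mirg: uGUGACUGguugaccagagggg
miR-485-3p, in Mirg: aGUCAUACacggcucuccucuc
miR-410-3p, in Mirg: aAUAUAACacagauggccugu
miR-453, in Mirg: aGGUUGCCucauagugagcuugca
miR-496a-5p, in Mirg: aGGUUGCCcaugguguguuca
miR-370-3p, in Rian: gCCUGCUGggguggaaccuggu
miR-770-5p, in Meg3: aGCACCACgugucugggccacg

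Of these miRNAs, miR-453 and miR-496a-5p share the seed GGUUGCC, and the other 5 each have a seed of their own. The small RNAs themselves had no reads assigned: the 236 snoRNA rows and 20 miRNA rows inside the hosts held 0 counts in all 14 libraries. Every value that follows is therefore a level of the spliced or nuclear host transcript and says nothing on the level of the small RNA.

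Promoters are shown for 4 members: Snhg17 and Snhg11, neighbours with unlike patterns, Gas5, read in all libraries, and Meg3, near 0 in most. Each window of 300 bases holds the region before the RefSeq start and the first bases after it (GRCm38.p6). Capitals mark a TATA box (TATAAA), a cyclic AMP response element (TGACGTCA), a GC box (GGGCGG) or a CCAAT box (CCAAT), searched on both strands.
Snhg17 (chr2:158361473-158361772, minus strand): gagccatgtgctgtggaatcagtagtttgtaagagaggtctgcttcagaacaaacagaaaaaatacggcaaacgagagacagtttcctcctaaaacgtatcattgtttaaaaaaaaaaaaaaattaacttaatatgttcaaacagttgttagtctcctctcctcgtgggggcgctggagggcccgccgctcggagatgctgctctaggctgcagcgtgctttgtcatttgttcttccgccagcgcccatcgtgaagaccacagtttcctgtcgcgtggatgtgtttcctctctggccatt
Snhg11 (chr2:158375463-158375762, plus strand): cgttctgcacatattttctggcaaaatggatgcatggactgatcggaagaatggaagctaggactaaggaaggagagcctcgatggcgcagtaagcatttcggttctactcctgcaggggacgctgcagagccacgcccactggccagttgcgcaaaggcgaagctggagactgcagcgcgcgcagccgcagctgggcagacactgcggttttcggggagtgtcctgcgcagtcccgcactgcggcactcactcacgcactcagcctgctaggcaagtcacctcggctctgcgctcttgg
Gas5, downstream start (chr1:161034916-161035215, plus strand): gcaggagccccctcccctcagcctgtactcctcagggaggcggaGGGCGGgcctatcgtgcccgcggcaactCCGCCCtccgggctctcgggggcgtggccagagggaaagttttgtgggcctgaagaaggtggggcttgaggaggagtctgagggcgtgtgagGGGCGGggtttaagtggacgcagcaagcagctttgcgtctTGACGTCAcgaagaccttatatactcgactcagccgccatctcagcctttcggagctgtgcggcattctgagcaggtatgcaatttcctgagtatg
Meg3, upstream start (chr12:109540746-109541045, plus strand): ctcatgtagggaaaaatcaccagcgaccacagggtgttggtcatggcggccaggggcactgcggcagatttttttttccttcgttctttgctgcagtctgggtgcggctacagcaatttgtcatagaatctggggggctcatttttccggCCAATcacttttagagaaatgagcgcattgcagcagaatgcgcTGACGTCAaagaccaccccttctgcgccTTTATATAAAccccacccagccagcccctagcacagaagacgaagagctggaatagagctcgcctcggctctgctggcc

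Of 32851 RefSeq promoters of this length, 13.6% hold the TATA box letters, 1.79% the cyclic AMP response element, 35.7% the GC box and 37.4% the CCAAT box, and the median promoter has 7 CG pairs. The Snhg17 and Snhg11 windows hold none of the 4 motifs, with 14 and 21 CG pairs. A start of Snhg17 listed 13 bases downstream has 1 GC box in its window. The Gas5 window has 1 cyclic AMP response element, 3 GC boxes and 19 CG pairs. The window of the upstream Gas5 start has 0 cyclic AMP response elements, 5 GC boxes and 33 CG pairs. The Meg3 window has 1 cyclic AMP response element, 1 CCAAT box, 2 overlapping TATA matches on opposite strands and 13 CG pairs. The window of the downstream Meg3 start has none of the 4 motifs and 1 CG pair. These matches describe letters, not sites in use.

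The libraries differed in ways that touch the results. Total counts ran from 6132985 to 15392217, and the 3 male PiC-MeA libraries detected 18964 to 20014 genes while the other 11 detected 12479 to 14908. Pan-neuronal markers were high in all 14 libraries (summed level 7680 to 20944 CPM over 7 markers, with Tubb3 at 0 throughout). CPM is the count scaled to a common library total with TMM factors. Markers of other cell types were read too: the sum over 10 astrocyte markers ran from 692 to 6476 CPM and that over 9 microglia markers from 106 to 783 CPM, with P2ry12 at 0 in all groups. In such small pools, fewer cells of a type and less RNA per cell cannot be told apart.

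Levels differed widely when scaled to exon length. Mean levels over the 14 libraries, in CPM per exon kilobase, were 491 for Malat1, 103 for Snhg11, 33.2 for Gas5 and 9.85 for Snhg14. Miat followed at 1.05, then Snhg17 at 0.437, Mirg at 0.385, Neat1 at 0.249 and Meg3 at 0.0639. The value for Rian, 0.000315, rests on 1 count in the 14 libraries. Malat1 ranked above 99.0% to 99.9% of the genes detected in a library on this scale, and Snhg11 above 90.6% to 97.9%. Malat1, Snhg11, Snhg14 and Gas5 were read in all 14 libraries with at least 579 counts each. Their coefficients of variation over the 14 libraries were 0.357, 0.384, 0.529 and 0.499, against a median of 1.18 over the 14599 genes kept. Counts of Meg3 and Rian, often listed as neuronal, were at or near 0 in most libraries, although the pan-neuronal sum was high. Tubb3, 1 of those markers, was at 0 as well, and the treatment of shared reads is not given. Whether the RNAs themselves were absent from the cells was not tested.

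**Figure D1:**
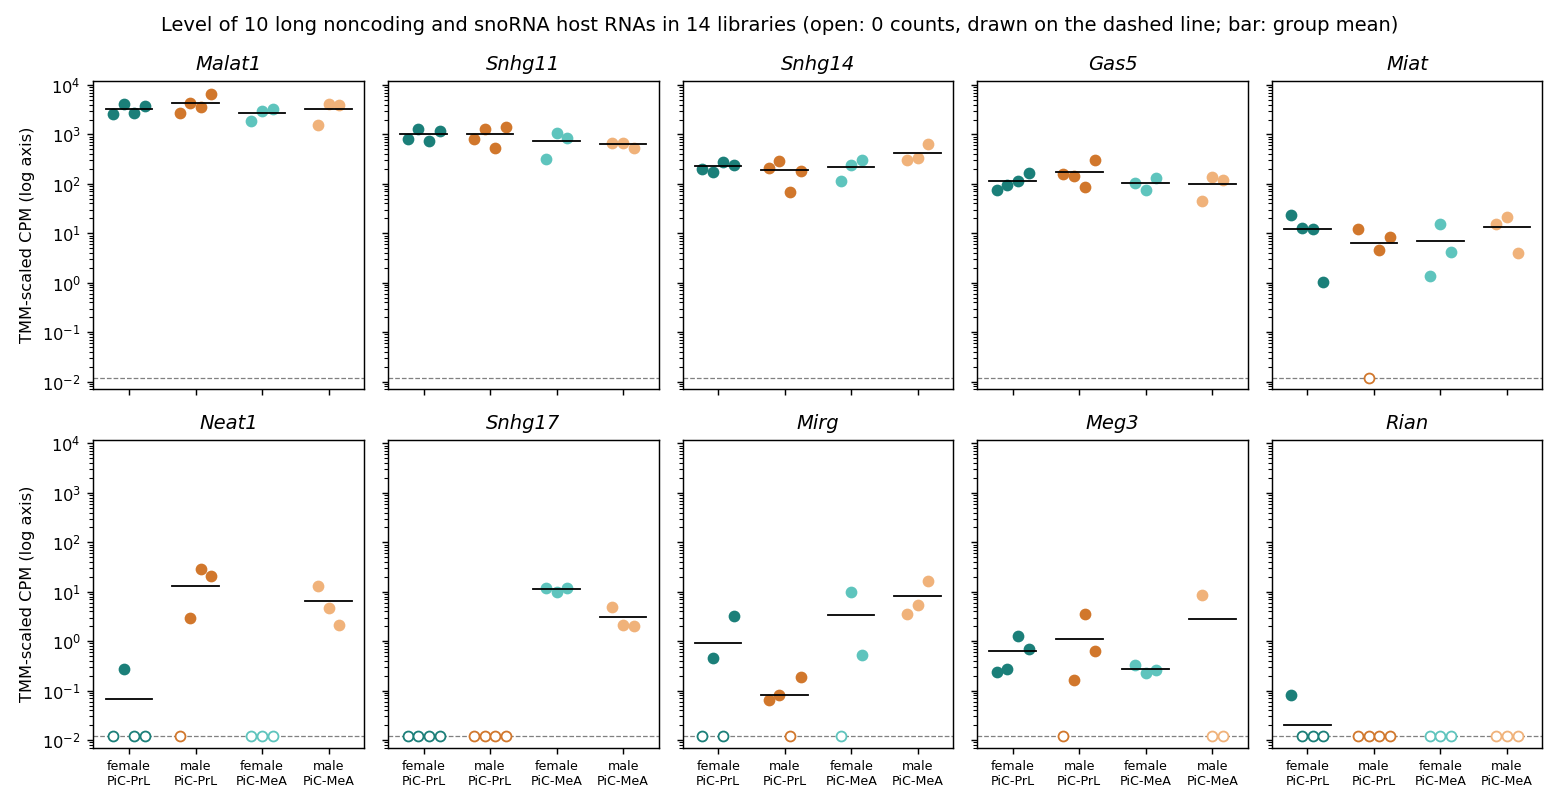
Level of each of the 10 RNAs by group, in TMM-scaled CPM on a log axis; each point is a library, the bar is the group mean, and open points on the dashed line had 0 counts. The 4 RNAs at the left of the upper row were read in all 14 libraries, Snhg17 was at 0 in the 8 PiC-PrL libraries, and Neat1 was at 3 counts or fewer in the 7 female libraries.

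Snhg17, an H/ACA host, had counts in all 6 PiC-MeA libraries and in none of the 8 PiC-PrL libraries. Counts were 147, 132 and 189 in females and 63, 26 and 14 in males of PiC-MeA, so the groups of the projections did not overlap in either sex. The mean level in PiC-MeA was 11.4 ± 1.20 CPM for females (SD, n = 3) and 3.04 ± 1.68 CPM for males (SD, n = 3). Taking 3 counts per library as the most that a count of 0 allows, the level was at least 48.2-fold higher in PiC-MeA than in PiC-PrL neurons of females and at least 13.2-fold higher in males. These values compare group means with the mean floor. The lowest PiC-MeA library over the highest PiC-PrL floor gave 36.1-fold in females and 7.29-fold in males. Without male PiC-MeA replicate 1, the highest of its group, the male limit from means was 8.96-fold. Such limits cover counting error only.

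Among all 55401 genes, Snhg17 was the only 1 with 0 counts in all PiC-PrL libraries and at least 10 in all PiC-MeA libraries (0.00181%), and no gene had the reverse pattern (0%). With at least 1 count in every PiC-MeA library, 6 genes shared it (0.0108%): Snhg17, Lmbr1l, Hnf1aos1, 5930403N24Rik, Gm26754 and Gm38695, and again none had the reverse (0%). These patterns were chosen after the values were seen. The 2 directions are not alike, since the reverse asks for counts in 8 libraries instead of 6. It also asks for 0 counts in the 3 male PiC-MeA libraries, which detected 18964 to 20014 genes against 12479 to 14908 in the other 11. Within PiC-MeA, all 3 female libraries were above all 3 male libraries, and the male mean was 0.267 of the female mean. Of the genes kept, 26.2% had no overlap in this comparison. The fitted log2 change, male minus female, was -1.90 ± 1.95 (SE), with an adjusted p of 0.970 in edgeR. The pan-neuronal sum also separated the projections, at 7680 to 11112 CPM in PiC-MeA and 11236 to 20944 CPM in PiC-PrL libraries, and the astrocyte sum in female PiC-MeA libraries was 692 to 792 CPM, with Aqp4 and Gjb6 at 0. Their part in the result was not tested.

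Snhg11, the other H/ACA host on chromosome 2 (158375638 to 158386145, plus strand), starts 14058 bases from Snhg17 (158353700 to 158361580, minus strand), and the genes point away from each other. GENCODE M21 gives Snhg11 the type protein-coding. Its levels were 795, 1306, 747 and 1188 CPM in females and 819, 1292, 519 and 1442 CPM in males of PiC-PrL. In PiC-MeA they were 324, 1064 and 847 CPM in females and 678, 672 and 542 CPM in males. The groups overlapped in every comparison, so the neighbour did not share the pattern of Snhg17. The PiC-MeA minus PiC-PrL change was -0.44 ± 0.40 in females and -0.69 ± 0.40 in males on the log2 scale (SE). Without female PiC-MeA replicate 1, the lowest library, the female value was -0.03.

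**Figure D2:**
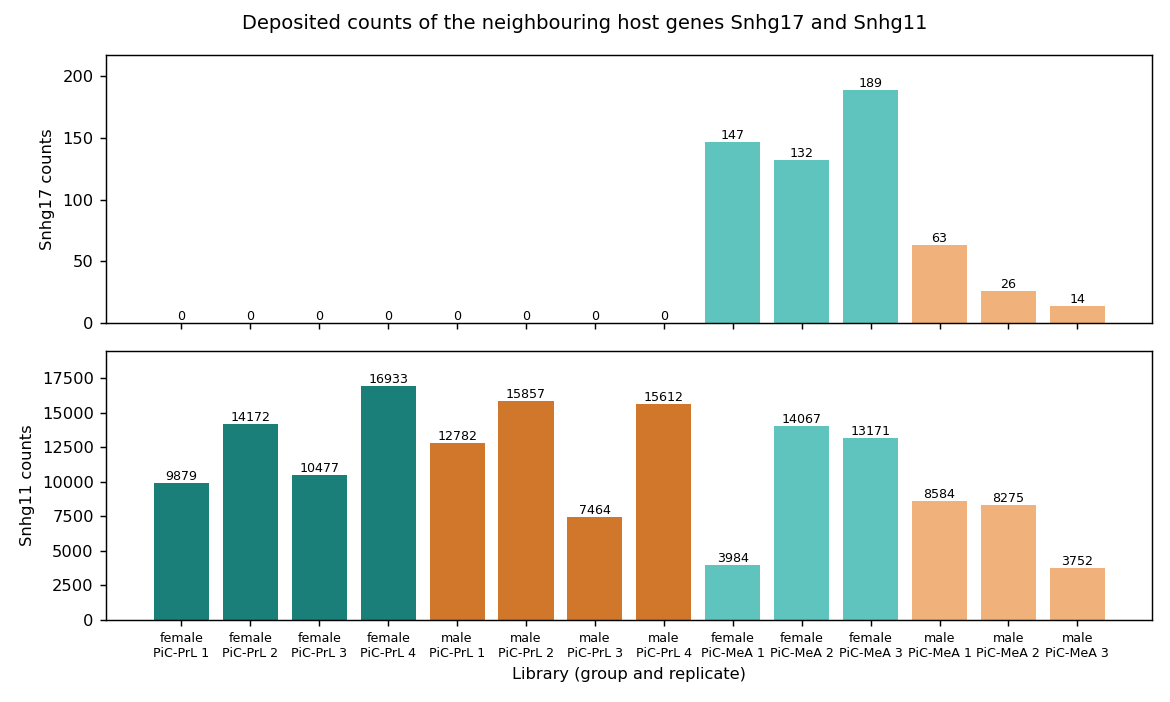
Deposited counts of Snhg17 (upper panel) and Snhg11 (lower panel) in each library, as bars from 0, coloured by group. Snhg17 was at 0 in the 8 PiC-PrL libraries and at 14 to 189 counts in the 6 PiC-MeA libraries, while Snhg11 had 3752 to 16933 counts throughout.

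Snhg14 is the long antisense host of the Prader-Willi region (chromosome 7, 59307924 to 59975759, minus strand), whose far end silences paternal Ube3a in neurons. Levels were 204, 177, 274 and 244 CPM in females and 207, 292, 69.5 and 178 CPM in males of PiC-PrL. They were 115, 243 and 303 CPM in females and 301, 340.0 and 649 CPM in males of PiC-MeA. All 3 male PiC-MeA libraries were above all 4 male PiC-PrL libraries, and the other within-sex and within-projection pairs overlapped. Of the genes kept, 25.4% had no overlap between the male projections. The change between projections was 1.20 ± 0.47 on the log2 scale in males (SE) and -0.03 ± 0.47 in females. The male value was 0.71 without male PiC-MeA replicate 3, the shallowest library, and 0.27 ± 2.34 with the number of detected genes in the fit.

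Ube3a, a ubiquitin ligase read from the other strand, shares 1803 of the 26093 exon bases of Snhg14 (6.91%). No source used here says whether reads were counted by strand, so reads of the shared part cannot be told apart. Ube3a had 470.0 ± 258 CPM in female PiC-PrL, 269 ± 113 in male PiC-PrL, 163 ± 115 in female PiC-MeA and 334 ± 83.8 in male PiC-MeA neurons (SD, n = 4, 4, 3 and 3). Its changes did not pass in the edgeR fit, with adjusted p = 0.487 for sex in PiC-PrL, 0.488 for sex in PiC-MeA and 0.439 for projection averaged over the sexes. That average joins unlike log2 changes (± SE). They were -1.52 ± 0.53 in females and 0.31 ± 0.50 in males, with adjusted p = 0.403 and 0.851 in edgeR. Of 8 protein-coding and noncoding neighbours listed for this domain, 2 were tested, Ube3a and Snrpn, a splicing protein gene upstream of Snhg14. Ndn, a neuronal growth suppressor gene of the same imprinted domain, was at 0 counts in all 14 libraries.

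Gas5 (chromosome 1, 161034422 to 161038539, plus strand) is a C/D host whose own spliced RNA carries only a short reading frame and is removed by nonsense-mediated decay while cells translate. Levels were 73.6, 95.7, 114 and 165 CPM in females and 157, 144, 85.3 and 306 CPM in males of PiC-PrL. They were 103, 73.6 and 131 CPM in females and 45.7, 137 and 118 CPM in males of PiC-MeA. The highest and lowest libraries were both male, and the groups overlapped in every comparison. The change by sex was 0.63 ± 0.52 in PiC-PrL and -0.03 ± 0.60 in PiC-MeA, and the change by projection was -0.13 ± 0.56 in females and -0.79 ± 0.57 in males, all log2 ± SE.

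Malat1 (chromosome 19, 5795690 to 5802672, minus strand) took 0.185% to 0.479% of all counts in a library. Its mature RNA is cut and ends in a triple helix in place of a poly(A) tail. Levels were 2559, 4205, 2716 and 3688 CPM in females and 2665, 4399, 3505 and 6455 CPM in males of PiC-PrL. They were 1903, 2995 and 3302 CPM in females and 1540.1, 4039.7 and 3996 CPM in males of PiC-MeA. The groups overlapped in every comparison, and no pair of neighbouring group means was further apart than the larger SD of the pair. The change by sex was 0.37 ± 0.32 in PiC-PrL and 0.22 ± 0.37 in PiC-MeA, and by projection -0.27 ± 0.35 in females and -0.42 ± 0.35 in males, all log2 ± SE.

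**Figure D3:**
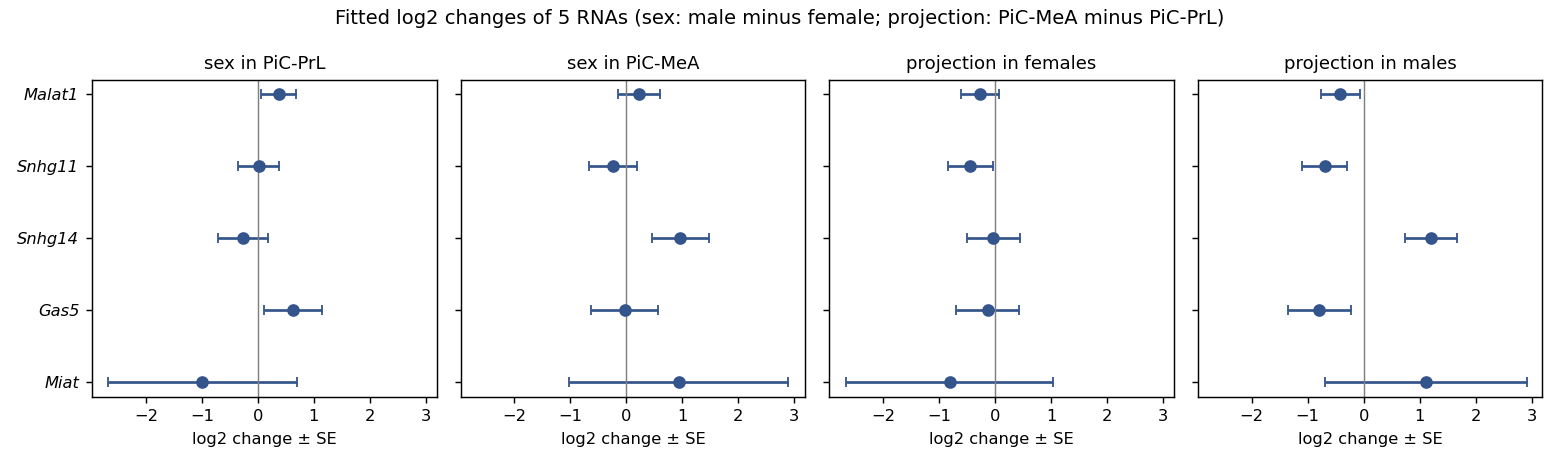
Fitted log2 changes of the 5 RNAs read in nearly all libraries, in 4 comparisons; points are estimates and bars are SE. Snhg14 stands at 0.96 ± 0.51 for sex in PiC-MeA and 1.20 ± 0.47 for projection in males, and the other 4 RNAs lie between -0.99 and 1.11 in all 4 panels.

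Neat1 (chromosome 19, 5824708 to 5845478, minus strand), whose nearer end lies 22035 bases from Malat1 on the same strand, was read almost only in male libraries. In females there were 0, 3, 0 and 0 counts for PiC-PrL and 0, 0 and 0 for PiC-MeA. In males there were 0, 36, 416 and 223 counts for PiC-PrL and 162, 59 and 15 for PiC-MeA. The sexes did not overlap in PiC-MeA, as for 26.2% of the genes kept, whereas in PiC-PrL male replicate 1 was at 0 with the females. The mean level in males was 13.1 ± 13.9 CPM for PiC-PrL (SD, n = 4) and 6.58 ± 5.53 CPM for PiC-MeA (SD, n = 3). In PiC-MeA the male level was at least 29.8-fold higher than the floor of 3 counts per female library, and at least 15.7-fold without male replicate 1, the highest. In PiC-PrL the summed counts, 675 in males and 3 in females, gave a rate ratio of 219 with an exact 95% interval of 74.5 to 1062 that covers counting error only. All 3 female counts were in replicate 2, without which the level was at least 59.1-fold higher than the floor, and the ratio was 115 without male replicate 3. In the fit over libraries, the log2 change by sex was 7.42 ± 2.63 in PiC-PrL and 9.39 ± 3.20 in PiC-MeA (SE). The adjusted p was 0.283 and 0.298 in edgeR, so neither passed. By DESeq2's Wald test both passed, with adjusted p = 0.0136 and 0.0221, as did 6.97% and 5.32% of the genes kept. By limma voom only the change in PiC-MeA passed, with adjusted p = 0.0049, as did 12.1% of the genes kept. With female libraries at or near 0, both fitted values depend on the prior count.

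With at most 3 counts in every female library and at least 15 in at least 6 of the 7 male libraries, 3 of the 55401 genes shared this pattern (0.00542%): Neat1, Gm13780 and Eif2s3y, a Y-linked translation factor gene. None had the reverse (0%), and the pattern was set after the values were seen. The 3 libraries with the most detected genes are all male, so the 2 directions are not alike. The sum of astrocyte markers was 1855 CPM in male PiC-PrL replicate 1, where Neat1 was at 0, and 3143, 2836 and 6476 CPM in replicates 2 to 4, where it was read. The sum was 1754 to 2027 CPM in male and 692 to 792 CPM in female PiC-MeA libraries, but 1751 to 2195 CPM in female PiC-PrL libraries, where Neat1 was near 0. The microglia sum was 214 CPM in male PiC-PrL replicate 1 and 434 to 783 CPM in the other 3, and it overlapped between the sexes in PiC-MeA, at 147 to 308 CPM in males and 106 to 398 CPM in females. The part of other cell types in the result was not tested.

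**Figure D4:**
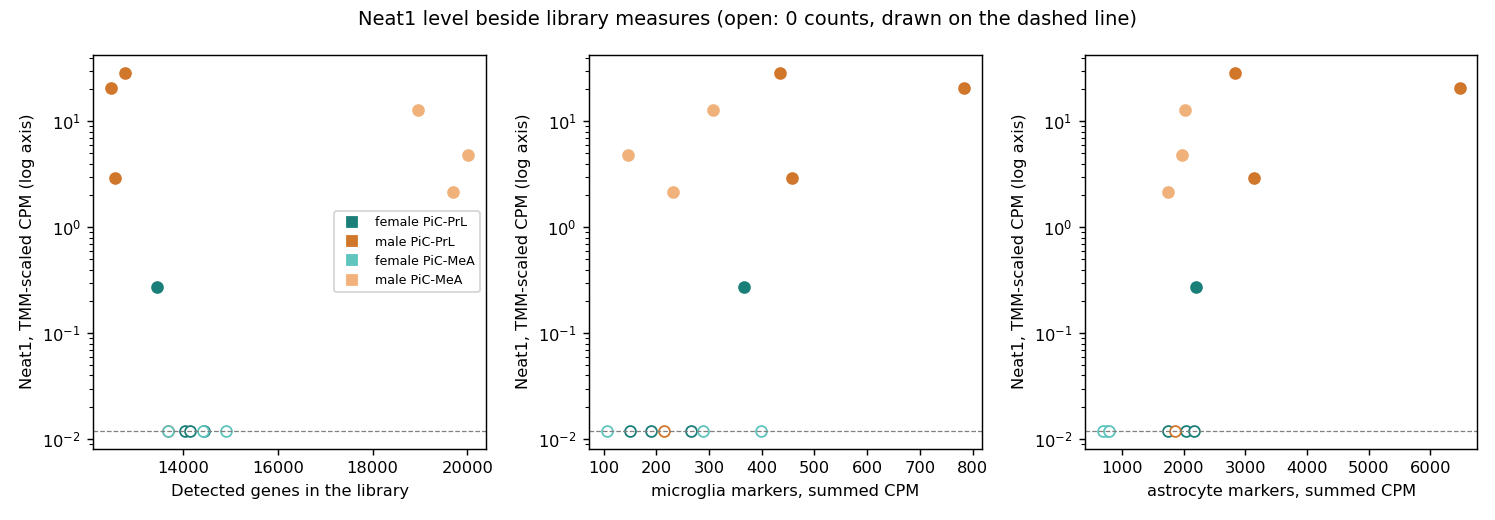
Neat1 level (TMM-scaled CPM, log axis) of each library against its number of detected genes and its summed microglia and astrocyte marker levels (CPM, linear axes), coloured by group; open points on the dashed line had 0 counts. The male libraries with Neat1 lie at both ends of the detected-gene axis, at 12479 to 12762 and 18964 to 20014 genes.

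The proteins that build paraspeckles gave no call. Of 13 tested paraspeckle protein genes, 7 had positive and 6 negative sex differences in PiC-PrL and again in PiC-MeA, and none passed in edgeR at an adjusted p of 0.05. The genes of the core proteins Nono and Sfpq were read in all 14 libraries at 145 ± 95.8 and 58.8 ± 37.5 CPM (SD, n = 14). Neat1 counts were thus near 0 in female libraries where these genes were read. The counts do not tell the 4 annotated Neat1 transcripts apart, and paraspeckles were not measured. Between projections, averaged over the sexes, 2 were positive and 11 negative, with a median of -0.35 against 0.07 over all genes on the log2 scale. The 13 nuclear speckle protein genes split 3 to 10 with a median of -0.37, and none of them passed.

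Miat (chromosome 5, 112213228 to 112229395, minus strand), a nuclear RNA that binds splicing regulators, was low and uneven. Levels were 23.4, 12.99, 12.2 and 1.05 CPM in females and 12.1, 0, 4.66 and 8.22 CPM in males of PiC-PrL. They were 1.38, 15.7 and 4.25 CPM in females and 15.2, 21.4 and 3.90 CPM in males of PiC-MeA. Each group held both high and low libraries, and the groups overlapped in every comparison. An antisense gene, Gm26953, shares 24.3% of its exon bases. Log2 changes ran from -0.99 ± 1.69 for sex in PiC-PrL to 1.11 ± 1.80 for projection in males (SE). Celf3 and Qk, splicing regulators that bind Miat, were at 17.4 ± 16.8 and 365 ± 358 CPM over the 14 libraries (SD), and no change of either passed.

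Mirg (chromosome 12, 109729764 to 109749460, plus strand), the host of the miRNA cluster with miR-134 and miR-410, was read in some libraries of 3 groups and in all of the other. Female PiC-PrL libraries held 0, 5, 0 and 46 counts, male PiC-PrL 1, 1, 0 and 2, female PiC-MeA 0, 128 and 8, and male PiC-MeA 44, 65 and 113. The male projections did not overlap, with 8.36 ± 6.95 CPM in PiC-MeA (SD, n = 3) and 0.0826 ± 0.0766 CPM in PiC-PrL neurons (SD, n = 4). Of the genes kept, 25.4% had no overlap in this comparison. The fitted log2 change was 6.52 ± 2.55 (SE), with an adjusted p of 0.130 in edgeR. It passed by DESeq2 (adjusted p = 0.0266) and limma voom (0.0179), as did 13.9% and 17.9% of the genes kept. With only the groups compared, the adjusted p was 0.0488 in edgeR. The female projections overlapped, at 0 to 3.23 CPM in PiC-PrL and 0 to 9.68 CPM in PiC-MeA. The male PiC-MeA libraries are those with the most detected genes, and the part of this in the result was not tested.

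Meg3, the first transcript of that domain (109541001 to 109571726), had 3, 3, 18 and 10 counts in female PiC-PrL and 0, 2, 51 and 7 in male PiC-PrL libraries. It had 4, 3 and 4 counts in female PiC-MeA and 108, 0 and 0 in male PiC-MeA libraries. The highest library of the 14 stood beside 2 libraries of its own group at 0, so no comparison separated. Rian, which lies between Meg3 and Mirg (109603940 to 109661716), had 1 count in 14 libraries, in female PiC-PrL replicate 1. In a library of this set a count of 0 allows at most 0.192 to 0.433 CPM.

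Another noncoding transcript of the domain, B830012L14Rik (109695586 to 109702587, plus strand), lies between Rian and Mirg and had a higher mean per length than all 3, at 6.04 CPM per exon kilobase. Levels were 28.8, 76.4, 5.85 and 4.70 CPM in female PiC-PrL, 0.192, 0, 39.5 and 0.370 CPM in male PiC-PrL, 37.1, 56.8 and 15.1 CPM in females and 41.1, 57.8 and 17.03 CPM in males of PiC-MeA. It had at most 4 counts in 3 of 4 male PiC-PrL libraries and read at 67 counts or more in the other 11. The protein-coding genes Dlk1 and Rtl1 of the paternal chromosome were at 0 in all 14 libraries, and Dio3, a deiodinase gene, had at most 1 count.

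**Figure D5:**
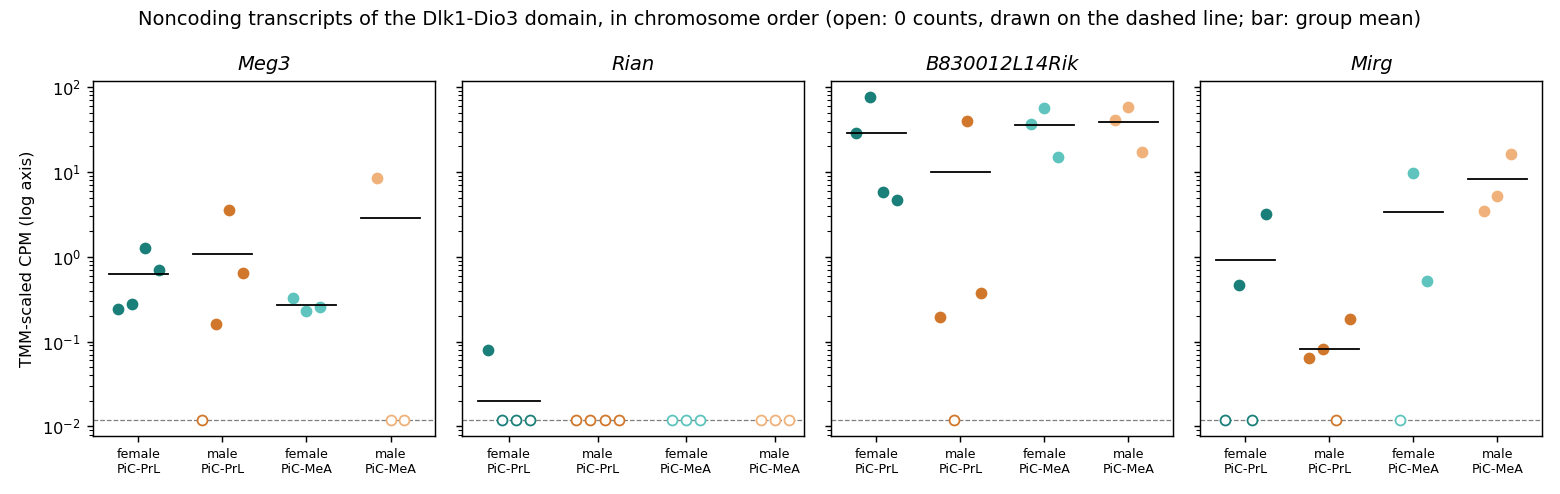
Level of 4 noncoding transcripts of the Dlk1-Dio3 domain by group, in TMM-scaled CPM on a log axis; points are libraries, bars are group means and open points on the dashed line had 0 counts. B830012L14Rik had counts in 13 of 14 libraries, Meg3 in 11, Mirg in 10 and Rian in 1.

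Counts of members past the threshold are read beside the share of all genes and support nothing, since the members were chosen with results known. By edgeR's quasi-likelihood test with Benjamini-Hochberg adjustment over 14599 genes, 0 of 9 tested members passed for sex in PiC-PrL (0% of all genes) and sex in PiC-MeA (0%). For sex averaged over the projections the count was 0 of 9, against 0.0137% of all genes. For projection it was 0 of 9 in females (0%) and 0 of 9 in males (0.603%). In the average over the sexes it was 1 of 9, Snhg17, against 0.822%. For the difference between the sex differences 0 of 9 passed (0%).

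At an unadjusted p under 0.05 in edgeR the counts in the same order were 1, 1, 1, 1, 3, 2 and 0 of 9, beside 14.3%, 12.4%, 10.7%, 11.1%, 22.2%, 17.4% and 15.6% of all genes. DESeq2's Wald test called 1, 1, 1, 1, 2, 1 and 0 members, beside 6.97%, 5.32%, 4.32%, 4.3%, 13.9%, 10.2% and 8.05% of the genes kept. limma voom called 0, 1, 0, 1, 2, 1 and 0, beside 0.0548%, 12.1%, 0.0274%, 0.212%, 17.9%, 8.75% and 4.99%. The call of Snhg17 was lost without any one of the 6 PiC-MeA libraries, and without male PiC-PrL replicate 2 or 4, with adjusted p = 0.0515 to 0.0792 in edgeR. It was also lost with the number of detected genes in the fit, where no gene passed in any contrast, so this loss is not particular to Snhg17. The stricter filter asks for at least 10 counts in 7 libraries. Snhg17 had counts in 6, so the gene was removed whatever its change. The fitted log2 change was 9.22 ± 1.62 and, with detected genes in the fit, 10.02 ± 4.78 (SE), values that depend on the prior count since all PiC-PrL libraries were at 0.

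Groups without overlap were likewise counted beside all genes. For sex, 0 of 9 tested members separated in PiC-PrL against 3.51% of all genes, 2 in PiC-MeA (Neat1 and Snhg17) against 26.2%, and 0 over both projections against 0.123%. For projection, 1 separated in females (Snhg17) against 8.43%, 3 in males (Mirg, Snhg14 and Snhg17) against 25.4%, and 1 over both sexes (Snhg17) against 0.959%. The comparisons within a sex and within a projection share groups and are not independent of each other.

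The order of groups differed from member to member. Malat1, Snhg11 and Gas5 had their highest mean in male PiC-PrL, and Neat1 as well, whereas Snhg14, Miat, Mirg and Meg3 had theirs in male PiC-MeA and Snhg17 in female PiC-MeA neurons. Rian had 1 count in all. In most members no step between neighbouring group means exceeded the larger SD of the pair. The exceptions were Snhg17, from female to male PiC-MeA and from there to PiC-PrL, Snhg14, from male PiC-MeA to female PiC-PrL, and Neat1, from male PiC-MeA to female PiC-PrL.

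Other host genes and the machinery of snoRNAs were read from lists. Of 13 other tested snoRNA host genes, 10 had positive and 3 negative projection differences in females, with a median of 0.61 against -0.06 over all genes (log2). In males 6 were positive and 7 negative, with a median of 0.00 against 0.16. For sex in PiC-MeA 1 was positive and 12 negative, with a median of -0.51 against 0.12. None of the 13 passed in edgeR. Snhg1 had a projection change of -0.15 ± 1.66, Snhg12 of -0.17 ± 1.31 and Zfas1, a C/D host, of 0.23 ± 1.42, averaged over the sexes (log2 ± SE), so errors at these levels were wide.

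The 9 genes of the C/D particle and its assembly had 1 positive and 8 negative sex differences in PiC-MeA, with a median of -1.15 against 0.12, and 5 positive and 4 negative in PiC-PrL. None passed in edgeR. Nop56, a core protein of that particle, had a projection change in males of -1.87 ± 0.54, with an adjusted p of 0.079 in edgeR, and 0.31 ± 0.51 in females. In males its partner Nop58 had 0.87 ± 1.63 and the methyltransferase Fbl 0.60 ± 1.71. The 5 H/ACA genes were all positive for sex in PiC-PrL, with a median of 0.75, and 2 positive and 3 negative in PiC-MeA. Dkc1, the pseudouridine synthase that works with the snoRNAs of Snhg17 and Snhg11, had a projection change of 0.04 ± 0.82 averaged over the sexes. The 14 genes of nonsense-mediated decay, which acts on host RNAs such as Gas5, split 4 to 10 for sex in PiC-PrL and 8 to 6 in PiC-MeA, and Upf1, its helicase, had a projection change of -2.47 ± 1.35 with an adjusted p of 0.38 in edgeR.

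Among 19 other tested long noncoding RNAs, 1 passed for projection averaged over the sexes, where 0.822% of all genes did, and for projection in males, where 0.603% did. 2900097C17Rik (chromosome 2, 156388065 to 156392979, minus strand) was lower in PiC-MeA, at 1087 ± 199 CPM in female and 681 ± 122 CPM in male neurons (SD, n = 3 each), than in PiC-PrL, at 1759 ± 256 and 1897 ± 805 CPM (SD, n = 4 each). The change averaged over the sexes was -1.09 ± 0.22 on the log2 scale with an adjusted p of 0.0248 in edgeR, and in males it was -1.48 ± 0.31 with an adjusted p of 0.0373. The median change over all genes was 0.07. Snap25, a pan-neuronal marker, fell by 0.86 ± 0.18 in the same contrast, with an adjusted p of 0.0363 in edgeR, and Aldoc, an astrocyte marker, fell by 1.57 ± 0.31, with an adjusted p of 0.0248. These 3 were the listed genes called in that contrast, and the count was 0 with the number of detected genes in the fit, where no gene passed. It was 1 without male PiC-PrL replicate 2 or 4, female PiC-MeA replicate 2 or male PiC-MeA replicate 3.

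The genes most like each member were found by Pearson's r of log2 CPM over the 14 libraries, as a description that shares depth and library effects. Nearest to Malat1 were AI593442 (r = 0.83), Dync1i2 (0.81) and Cadps (0.79). Nearest to Snhg11 were Anapc10 (0.83), Clasp2 (0.83) and Glud1 (0.80), those nearest to Snhg14 were Serinc3 (0.89), Fnbp4 (0.80) and Tanc2 (0.80), and genes near Gas5 were Capza2 (0.82) and Borcs7 (0.77). For the RNAs with some libraries at 0, the nearest were Pfn4 (0.98), Ccdc71 (0.97) and Ptpn21 (0.97) for Snhg17, and Ddo (0.89), Rpe65 (0.88) and Ccdc60 (0.87) for Neat1. They were Rph3al (0.91), Trdn (0.90) and Tex14 (0.90) for Mirg, Cmss1 (0.89), Farp1 (0.86) and Akt2 (0.86) for Miat, and Naglu (0.77), Tmco6 (0.74) and Sccpdh (0.74) for Meg3. Between members, Gas5 and Malat1 had r = 0.74, Mirg and Snhg14 0.65, Malat1 and Snhg11 0.59, Snhg17 and Snhg11 -0.46, Neat1 and Malat1 0.31, and Meg3 and Mirg -0.16.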

How the data were processed

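Libraries were SMART-Seq2 cDNA of 14 tubes of 4 to 5 cells. The deposited table holds raw read counts per gene, which the authors made with Trimmomatic 0.39, HISAT2 2.2.1, SAMtools and featureCounts 2.0.1 on mm10, per the submitters' processing notes. No source used here gives the annotation release, strand setting or treatment of shared reads. Positions come from GENCODE M21, where 54349 of 55401 identifiers matched with version and 55141 without. In edgeR 4.0.16 (R 4.3.3), filterByExpr (count at least 10, total at least 15) kept 14599 genes, TMM factors were used, and a robust quasi-likelihood model with 1 mean per group gave 7 contrasts, tested on simulated data first. Sex is male minus female and projection is PiC-MeA minus PiC-PrL. The call threshold was 0.05 after Benjamini-Hochberg adjustment across the genes kept. DESeq2 1.42.0 and limma 3.58.1 were alternatives. Log2 CPM, used for correlations, had a prior count of 2. The fitted log2 changes used the default prior count of edgeR instead. Where a library had 0 counts, 3 counts were the floor. Named were all members, 19 related genes and up to 4 genes per list that passed; B830012L14Rik and genes of count patterns were chosen after their values were seen. The members and lists were chosen with earlier results of these data known. No column belonged to other samples. A gene among those nearest in pattern is not reported here.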

Additional observations from a re-analysis of the deposited data

Results flagged for a closer look

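In 17 sets of 4 libraries with a spread, 3 had a library far from the other 3. Chance gives about 1 in 20 for spread values, but a single library above 3 at 0 always stands apart, as for Rian and Neat1. Mirg in female PiC-PrL replicate 4 was at 3.23 CPM (46 counts), against 0 to 0.461 CPM in the other 3 libraries of the group. Rian in female PiC-PrL replicate 1 was at 0.0805 CPM, which is 1 count, and the other 3 were at 0. Neat1 in female PiC-PrL replicate 2 was at 0.276 CPM, which is 3 counts, and the other 3 were at 0. The last pair stand on 1 and 3 counts, so depth limits both.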

How the results depend on the processing

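For Snhg17 and projection averaged over the sexes, the count of members called was 1, and it was 0 under the stricter filter, with the number of detected genes in the fit, and with a replicate block (adjusted p = 0.13 for Snhg17). It was 0 to 1 when each library was left out. The stricter filter asks for at least 10 counts in 7 libraries and Snhg17 had counts in 6, so it had to be removed. Snhg17 kept its sign in every alternative run. Residuals of libraries with the same number correlated at -0.0388 to 0.0407 over 19 pairs. The labels do not say whether the numbers pair the tubes. Correlations near 0 cannot decide this, since the spread between tubes may be technical. The block changed no other count of members, and listed genes called for projection averaged over the sexes went from 3 to 0. The other counts of members called, 0 in the fit reported, were 1 by DESeq2 for sex in PiC-PrL, sex in PiC-MeA, sex averaged and projection in females. They were 1 by limma voom for sex in PiC-MeA and projection in females. For projection in males they were 2 by DESeq2, by limma voom and with only the groups compared. For the members' log2 changes, 1303 of 1385 alternative values were classed as the same as the value reported. Another 72 were classed as moved, which did not require crossing the call threshold, and 10 for Snhg17 lost the call. Calls gained under an alternative are not set apart in these classes. Of the 1385 values, 87 had the other sign. Over all genes, the 7 contrasts gave 0 to 120 calls in the fit reported, 628 to 2022 by DESeq2, 4 to 2617 by limma voom, 17 to 452 without a filter, 0 to 987 with only the groups compared, 0 to 75 with the stricter filter, 0 to 43 with the block and 0 with detected genes in the fit. Leaving out each library gave 39 to 128 calls for projection averaged over the sexes and 20 to 139 in males. Without the 3 male PiC-MeA libraries no member passed in either contrast that could be fitted. At these depths, RNAs under 0.433 CPM in the shallowest library could not be told from 0.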
